A study of Homo sapiens with 4 samples.

Results

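DEAD box (DDX) and DEAH box (DHX) helicase genes were taken from the peak table of an m6A-seq experiment as every gene symbol made of DDX or DHX followed by a number. The rule found 27 of the 7267 gene symbols in the table, 19 DDX and 8 DHX, and they held 116 of its 27678 listed peaks. In m6A-seq an antibody against N6-methyladenosine (m6A), a methyl mark on adenosines inside mRNA, pulls down RNA fragments (the immunoprecipitate, IP), and their reads are compared with those of unselected RNA (input). The labels name no treatment or genetic change of the cells, and they give 2 IP and 2 input libraries of poly(A) RNA, and nothing in the labels says whether the libraries came from separate cultures. The growth protocol names MDA-MB-231Br cells, a line derived from MDA-MB-231 breast cancer cells that grows in brain, while the cell line label says MDA-MB-231 and the extraction protocol mentions embryos. VIM, CD44 and EGFR, which MDA-MB-231 cells express strongly, were listed with 5, 11 and 22 peaks, whereas no peak was listed for ESR1, PGR or CDH1, which these cells express little or not at all. The table gave 1 IP count and 1 input count per peak, so the libraries of a kind appear together, no spread between them can be given, and no test across samples was possible.

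DEAD and DEAH box proteins bind RNA through a shared helicase core and use ATP to unwind short duplexes or to strip proteins from RNA. They act at nearly every step in the life of an RNA, from ribosome assembly and splicing to nuclear export, translation and decay. m6A is laid down in the nucleus, largely at adenosines within a GGAC context, and the mark is known for its part in the splicing, translation and stability of mRNAs, including in breast cancer cells.

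The coding peaks with the most IP reads per input read in 5 of the genes are shown first, coding by the region the authors gave. They are shown because they carry the signal described below and give the letters under it. Each lies on the spliced transcript, with exons joined where the peak crosses an intron, on the strand given, build GRCh38. Capitals mark GGAC, searched on the transcribed strand only. The DHX38 peak joins exons 11 and 12 of 27, chr16:72101515-72103205, plus strand. The DDX54 peak lies in exon 2 of 20, chr12:113180931-113181055, minus strand. The DHX34 peak joins exons 5 and 6 of 17, chr19:47360037-47362641, plus strand. The DDX10 peak joins exons 1 and 2 of 18, chr11:108665242-108673518, plus strand. The DDX19B peak joins exons 1 to 3 of 12, chr16:70299313-70314950, plus strand. By its midpoint another DDX19B peak, with 320 IP and 40 input reads, is coding too and has a higher ratio.
DHX38: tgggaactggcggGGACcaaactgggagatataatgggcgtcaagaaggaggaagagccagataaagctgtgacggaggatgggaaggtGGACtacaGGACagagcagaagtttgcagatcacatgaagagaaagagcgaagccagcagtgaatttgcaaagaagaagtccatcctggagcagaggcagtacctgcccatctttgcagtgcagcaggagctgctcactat
DDX54: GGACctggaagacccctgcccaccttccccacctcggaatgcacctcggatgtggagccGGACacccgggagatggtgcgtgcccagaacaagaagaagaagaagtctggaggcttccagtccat
DHX34: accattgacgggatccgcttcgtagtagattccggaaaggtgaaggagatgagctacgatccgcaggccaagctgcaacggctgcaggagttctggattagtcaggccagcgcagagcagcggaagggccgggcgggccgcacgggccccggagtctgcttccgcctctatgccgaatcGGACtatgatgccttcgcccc
DDX10: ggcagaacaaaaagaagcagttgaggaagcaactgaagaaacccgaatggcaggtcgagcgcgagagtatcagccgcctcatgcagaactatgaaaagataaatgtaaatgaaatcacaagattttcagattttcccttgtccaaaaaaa
DDX19B: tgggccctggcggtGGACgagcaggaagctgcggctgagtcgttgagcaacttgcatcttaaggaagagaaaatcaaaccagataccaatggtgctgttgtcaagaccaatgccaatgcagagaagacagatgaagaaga

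The 3 coding peaks below stand at the other end of the range, each with far more input than IP reads. The DDX3X peak joins exons 13 and 14 of 19, chrX:41346329-41346522, plus strand. The DDX21 peak joins exons 9 and 10 of 15, chr10:68971963-68973664, plus strand. The DDX24 peak joins exons 5 and 6 of 9, chr14:94057852-94060296, minus strand.
DDX3X: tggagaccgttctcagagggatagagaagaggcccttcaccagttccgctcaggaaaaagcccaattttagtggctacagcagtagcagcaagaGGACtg
DDX21: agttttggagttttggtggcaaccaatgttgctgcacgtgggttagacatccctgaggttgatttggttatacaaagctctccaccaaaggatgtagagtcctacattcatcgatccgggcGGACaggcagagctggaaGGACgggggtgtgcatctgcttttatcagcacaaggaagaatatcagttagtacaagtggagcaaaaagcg
DDX24: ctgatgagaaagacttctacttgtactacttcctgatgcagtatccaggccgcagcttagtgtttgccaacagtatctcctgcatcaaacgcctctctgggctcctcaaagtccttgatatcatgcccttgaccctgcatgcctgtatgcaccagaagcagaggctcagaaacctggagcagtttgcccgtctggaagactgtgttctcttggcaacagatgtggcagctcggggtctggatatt

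The letters GGAC alone did not separate these peaks. The DHX38 peak held 3 of them, the DDX21 peak 2, and the DDX10 and DDX24 peaks none. Of all listed peaks as long as the DHX38 peak, 69.6% held GGAC at least once, and 54.0% of those as long as the DDX10 peak did. No match says only that these letters are missing from this window.

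A peak was listed for 27 of the 55 protein-coding DDX and DHX genes of the annotation, 49.1% (exact 95% interval 35.4% to 62.9%), against 36.4% of all protein-coding genes. The interval includes the background, so no difference from genes at large was shown. The longest coding transcript was also longer in the median for listed helicase genes, 4337 nt, than for those not listed, 3537 nt, as it was over all genes (4054 and 2410 nt). Among genes on the plus strand 16 of 28 helicases were listed (57.1%, background 42.6%), and on the minus strand 11 of 27 (40.7%, background 30.0%). The table listed no peak in any of 34 non-coding entries of the family. Protein-coding genes with a listed peak numbered 7256 beside 7267 gene symbols in all, so few non-coding genes of any kind were listed. A gene without a listed peak may be unmethylated, weakly expressed or under the authors' thresholds.

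The reads of the helicase peaks were set beside those of all listed peaks. The 116 peaks held 17345 IP and 15819 input reads in sum, with a median of 37 IP and 103 input reads per peak, against 32 and 67 over all listed peaks. IP reads exceeded input reads in 37 peaks, 31.9% (exact 95% interval 23.6% to 41.2%), against 40.5% of all peaks. The ratio of IP to input reads was 4 or more in 20 peaks, 17.2% (10.9% to 25.4%), against 17.2% of all peaks, and at least 4 input reads per IP read in 38 peaks, 32.8% (24.3% to 42.1%), against 30.3%. All 3 intervals include the background. The 20 take in the peaks of DDX1 and DDX19B with 0 input reads, whose ratios are known only as lower bounds under 4. With 0 input set to a floor of 3 counts, 18 peaks were left, 15.5% (9.46% to 23.4%), against 16.1% of all peaks. The intervals treat peaks as independent and cover counting error only, although many peaks of a gene overlap and share reads.

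Counted by gene, the shares also lay within counting error of the background. Of the 27 genes, 15 held a peak with more IP than input reads, 55.6% (35.3% to 74.5%), against 73.8% of all genes with a peak, and 9 held a peak counted at 4 or more, 33.3% (16.5% to 54.0%), against 43.5%. With the floor DDX1 left this count, which gave 8 genes, 29.6% (13.8% to 50.2%), against 40.2%. All these intervals include the background. DHX38, DDX54, DDX11, DDX19B, DDX10 and DDX56, singled out after their values were seen, held 27 of the 37 peaks with more IP than input reads and 17 of the 20 counted at 4 or more (16 of 18 with the floor), in 49 peaks. DDX21, DDX3X and DHX9 held 1 peak with more IP than input reads among 21. Genes picked by their values hold many or few rich peaks by that choice. No like count was made over all genes, so a concentration particular to helicases was not shown. The log2 read ratio, log2((IP + 1)/(input + 1)), had a median of -0.95 over the helicase peaks (95% interval -1.46 to -0.42) and -0.63 over all peaks. Ratios were not scaled by library size, so equal reads do not mean absent enrichment, and ratios are compared only between peaks.

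**Figure D1:**
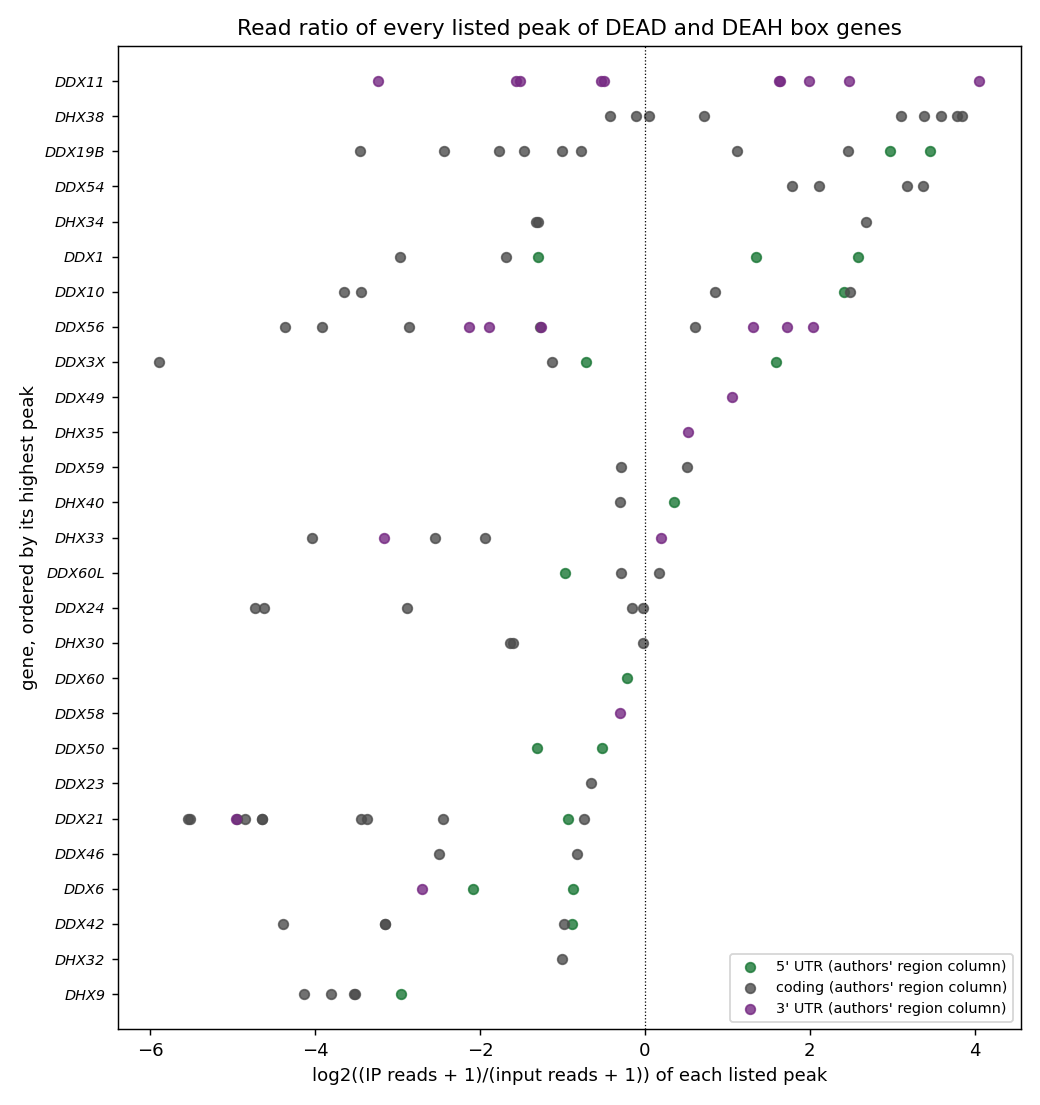
Each point is 1 listed peak of a DDX or DHX gene, placed by its log2((IP reads + 1)/(input reads + 1)) and coloured by the authors' region, with genes ordered by their highest peak. DDX11, DHX38, DDX19B and DDX54 stand at the top, and every peak of DHX9, at the bottom, lies below -2.

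Among the helicases of splicing, 5 of 13 genes were listed, beside 36.4% of all protein-coding genes. They held 18 peaks, and DHX38 stood apart from the others. DHX38 is the human PRP16, which remodels the spliceosome before the second step of splicing. Its highest peak, the one printed above, held 1917 IP and 132 input reads, a ratio of 14.5 (12.2 to 17.5). The 3 neighbours overlapping in a chain from exon 9 to exon 13 held 1483 IP and 107 input reads (13.9, 11.4 to 17.0), 881 and 72 (12.2, 9.62 to 15.8), and 811 and 93 (8.72, 7.03 to 10.9). The 3 highest thus had overlapping intervals. The listed peaks next to this chain held nearer to equal reads, 71 IP and 43 input reads in exon 9 and 75 and 81 in exons 13 and 14. Both of these overlap the outermost peaks of the chain, so they are not separate flanks. The listed peaks that do not overlap the chain held 122 and 118 before it, and 70 and 94 after it. A second site stood at the end of the mRNA, where the peak in exons 26 and 27, chr16:72111060-72112904, held 802 IP and 76 input reads, a ratio of 10.6 (8.33 to 13.5), and 5 GGAC. That peak shares 433 nt of exon with PMFBP1 on the opposite strand, and how strand was counted is not given in the sources used here.

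The other splicing helicases held no peak of this kind. DHX35, found in the catalytic spliceosome, had a single peak at its 3′ end with 48 IP and 33 input reads, a ratio of 1.45 (0.915 to 2.34). DDX23, the human PRP28 that helps to exchange U1 for U6 at the 5′ splice site, had 1 peak with 80 IP and 127 input reads, a ratio of 0.630 (0.470 to 0.840). DDX46, the human PRP5 of U2 recruitment, had 55 IP and 98 input reads in exons 7 and 8 and 17 and 101 in exons 5 and 6. In DDX42, which associates with the U2 particle, 5 peaks ran from 37 IP and 69 input reads at the start codon (0.536, 0.350 to 0.811) down to 12 and 271 in exons 5 to 7 (0.0443, 0.0226 to 0.0786). Thus DDX23, DDX42 and DDX46 held more input than IP reads in every listed peak. No peak was listed for DDX5, DDX17, DDX39A, DDX39B, DDX41, DHX8, DHX15 or DHX16.

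**Figure D2:**
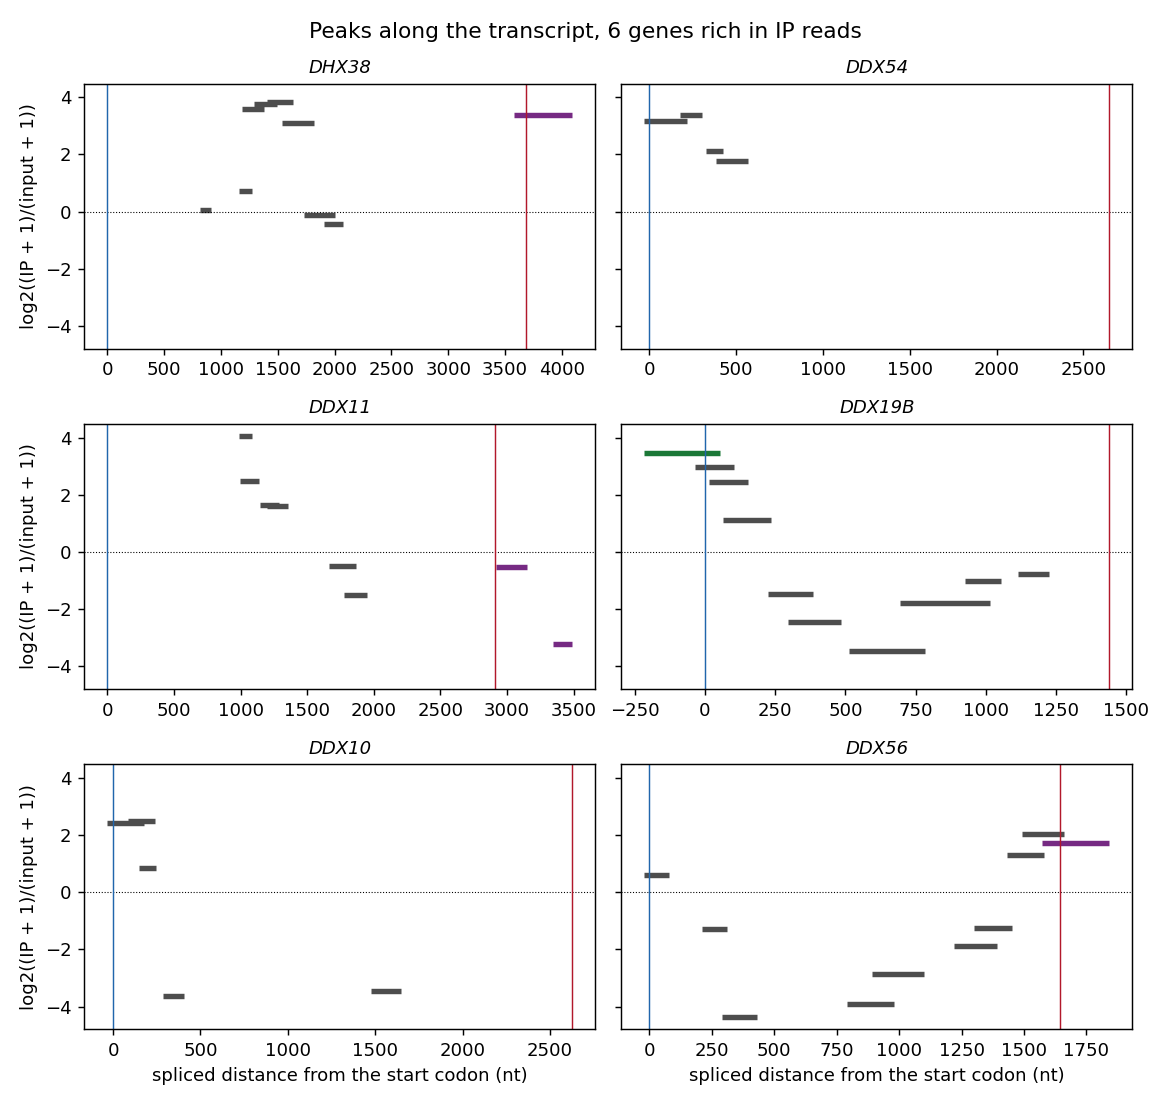
Peaks of DHX38, DDX54, DDX11, DDX19B, DDX10 and DDX56 are drawn as bars along the spliced transcript, by distance in nt from the start codon (blue line; red line, stop codon) and by log2((IP reads + 1)/(input reads + 1)), and coloured by the region of the peak's midpoint (green, 5′ UTR; grey, coding; purple, 3′ UTR). Bars above 0 cluster near the start codon in DDX54, DDX19B and DDX10, inside the coding region in DDX11, there and at the stop codon in DHX38, and mainly at the stop codon in DDX56. The 2 peaks of DDX11 and 1 of DDX56 that were placed only on another annotated transcript of the gene are not drawn.

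Ribosome biogenesis was the role with the most listed peaks, 45 in 8 of its 16 genes, beside 36.4% of all protein-coding genes listed. It held both some of the richest and some of the poorest peaks. In 13 of the 45, 28.9% (16.4% to 44.3%), IP reads exceeded input reads, against 40.5% of all peaks. A ratio of 4 or more was found in 6, 13.3% (5.05% to 26.8%), against 17.2%. Both intervals include the background. The median log2 ratio was -1.94 (-3.37 to -0.525), an interval that includes the -0.63 of all peaks. DDX21 gave 12 of the 45 peaks, with a median of -4.64. DDX54, whose yeast relative Dbp10 acts in assembly of the large subunit, was the one gene with several peaks that were all rich in IP reads. Its 4 peaks, all within the first 5 exons, held 944 IP and 103 input reads (9.17, 7.47 to 11.3) over the start of the coding region, 601 and 57 (10.5, 8.03 to 14.1) in exon 2, 1048 and 242 (4.33, 3.76 to 5.00), and 462 and 134 (3.45, 2.84 to 4.21). The first 2 had overlapping intervals and both stood above the other two.

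DDX10, whose yeast relative Dbp4 acts in processing of the small subunit RNA, showed the same start-proximal signal followed by a sharp drop. Its peak over the start codon held 468 IP and 87 input reads (5.38, 4.27 to 6.84), and the printed peak, which overlaps it, 425 and 75 (5.67, 4.42 to 7.34). The next held 78 and 43 (1.81, 1.23 to 2.70), and the peaks in exons 3 and 4 and exons 12 and 13 only 5 IP and 74 input reads (0.0676, 0.0213 to 0.165) and 8 and 97 (0.0825, 0.0346 to 0.169). No DDX10 peak held GGAC, rich or poor. The start codon peak shares 21 of its 161 words of 50 nt with the pseudogene DDX10P2.

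In DDX56, a nucleolar helicase of large subunit assembly, the signal lay at both ends of the mRNA and was lost between them. The peak at the start held 107 IP and 70 input reads (1.53, 1.12 to 2.10), and that in exons 3 and 4 held 5 and 123 (0.0407, 0.0130 to 0.0975). Towards the stop codon the reads returned, with 378 IP and 152 input reads (2.49, 2.05 to 3.02), then 577 and 140 (4.12, 3.42 to 4.99) in exons 13 and 14, then 194 and 58 (3.34, 2.48 to 4.57) in the last exon. The other 6 of its 11 peaks lay between 0.0571 and 0.411.

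DDX21, which acts in ribosomal RNA transcription and processing, had the most peaks of any helicase gene, 12, and none with more IP than input reads. The peak over its start held 122 IP and 234 input reads (0.521, 0.415 to 0.652), and the peak in exons 13 to 15 near the stop codon, which held 6 GGAC, 213 and 357 (0.597, 0.501 to 0.709). Between and after them lay 10 peaks with ratios from 0.0188 to 0.180, the printed one with 7 IP and 372 input reads (0.0188, 0.00751 to 0.0392) and its neighbour with 6 and 319 (0.0188, 0.00685 to 0.0414). The intervals of the 2 highest peaks, picked by their values, lay above those of the other 10. The first of the 2 has its midpoint in the 5′ UTR. The coding peak in exon 2 after it was among the low ones, with 57 IP and 317 input reads (0.180, 0.133 to 0.239). DDX50, the close relative of DDX21 on the same chromosome, had 2 peaks at its start with 122 IP and 176 input reads (0.693, 0.546 to 0.878) and 31 and 78.

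The remaining genes of this role were low or single-peaked. DDX24, whose yeast relative Mak5 acts on the large subunit, held 258 IP and 263 input reads in one peak of exon 5 (0.981, 0.823 to 1.17) and 177 and 198 in exon 2, but 5 and 158 in the printed peak (0.0316, 0.0101 to 0.0754), and its other 2 peaks had ratios of 0.0342 and 0.130. DHX33, a nucleolar helicase that also serves as an RNA sensor, had 5 peaks, the highest with 63 IP and 55 input reads (1.15, 0.785 to 1.68) in its last exon and the lowest with 6 and 114. DDX49, related to yeast Dbp8, had 1 peak in its 3′ UTR with 167 IP and 80 input reads, a ratio of 2.09 (1.59 to 2.76). No peak was listed for DDX18, DDX27, DDX31, DDX47, DDX51, DDX52, DDX55 or DHX37.

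**Figure D3:**
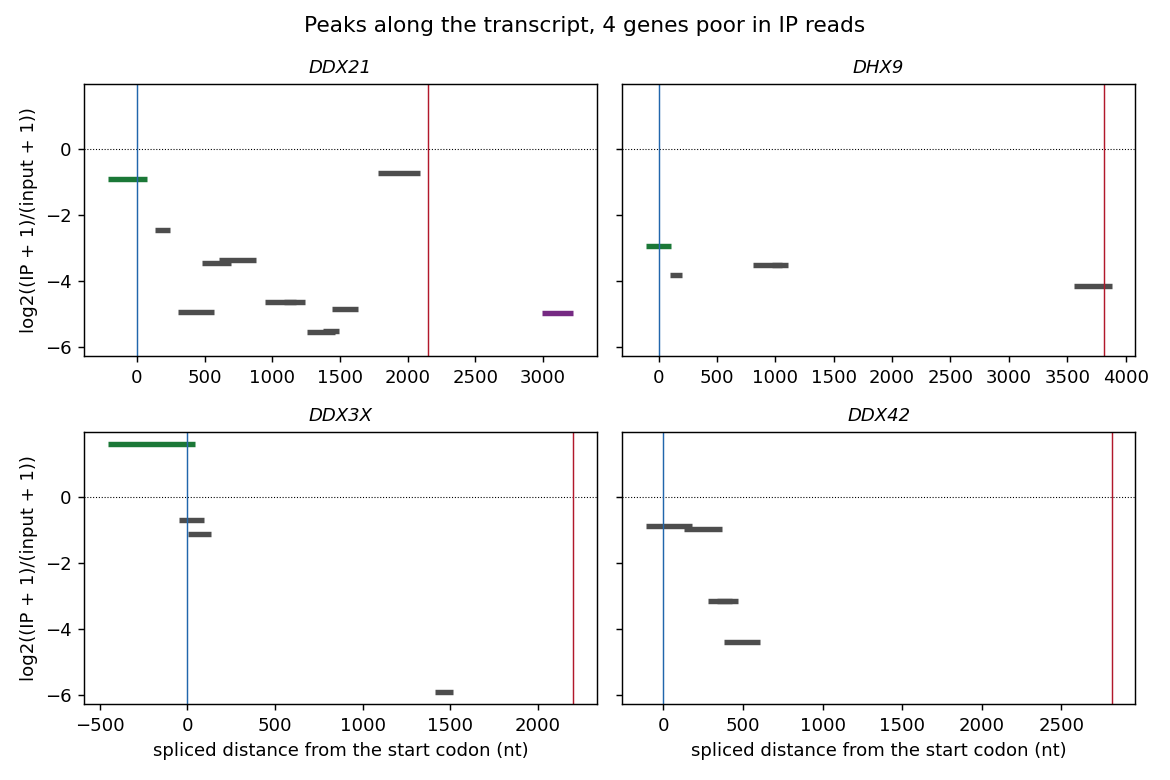
Peaks of DDX21, DHX9, DDX3X and DDX42 are drawn along the spliced transcript, with distance in nt from the start codon on the horizontal axis, log2((IP reads + 1)/(input reads + 1)) on the vertical axis, and lines and colours by region as in the plot of the 6 genes rich in IP reads. The bars near the start codon stand highest in DHX9, DDX3X and DDX42, in DDX21 a bar before the stop codon stands slightly higher, and those inside the coding region reach down to the DDX3X peak of 6 IP and 415 input reads.

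Of the helicases grouped under translation, export and cytoplasmic mRNA, 5 of 8 were listed, beside 36.4% of all protein-coding genes. The group takes in DHX9 and DDX1, described below by other roles, with 5 peaks each. Of the 27 peaks of the group 7 held more IP than input reads, 25.9% (11.1% to 46.3%), against 40.5% of all peaks. At 4 or more IP reads per input read 5 peaks were counted, 18.5% (6.30% to 38.1%), against 17.2%. Both intervals include the background. With 0 input set to the floor 3 were left, beside 16.1% of all peaks, and 1 of these 3, in DDX3X, rests on a single input read. DDX19B, the ATPase that releases mRNPs at the nuclear pore together with GLE1, declined along its mRNA. Its first peak held 10 IP and 0 input reads, at least 3.33-fold more IP against a floor of 3 counts. The next held 320 IP and 40 input reads (8, 5.75 to 11.4), the printed one 352 and 63 (5.59, 4.26 to 7.43), and the fourth 164 and 75 (2.19, 1.65 to 2.91). In exons 7 and 8 it was 10 and 120 (0.0833, 0.0390 to 0.159), and towards the end of the coding region it was higher again, 121 and 208 (0.582, 0.461 to 0.731), with the other 4 peaks between 0.175 and 0.496. These reads cannot be assigned to DDX19B alone, since its start peaks lie in exons shared with the readthrough gene AC012184.2, and its last 2 peaks share 100% and 88.5% of their 50-nt words with DDX19A, for which no peak was listed.

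DDX1, part of the tRNA ligase complex, and DDX3X, which helps translate mRNAs with structured leaders, were also highest at the start. In DDX1 the first peak held 5 IP and 0 input reads, at least 1.67-fold more, and the next 32 and 12 (2.67, 1.34 to 5.69), followed by 34 and 85, 27 and 89, and 18 and 148 (0.122, 0.0701 to 0.199). In DDX3X the first peak held 5 IP and 1 input read (5.00, 0.559 to 236), an interval too wide to place it. The peaks over its start codon held 157 and 259 (0.606, 0.494 to 0.742) and 148 and 325 (0.455, 0.372 to 0.555), and the printed peak 6 and 415 (0.0145, 0.00528 to 0.0317), the lowest ratio of the 116.

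DHX9, a nuclear helicase of transcription and RNA processing, and DDX6, which represses translation and promotes decapping, held more input than IP reads in every listed peak. The 5 peaks of DHX9 had 255 to 526 input reads each but 18 to 35 IP reads, with ratios from 0.0551 (0.0366 to 0.0801) to 0.125 (0.0840 to 0.182). Its highest peak was the lowest highest peak of the 27 genes. DDX6 held 56 IP and 103 input reads at its start (0.544, 0.385 to 0.760), 20 and 88 next to it, and 18 and 123 in its 3′ UTR (0.146, 0.0839 to 0.241). No peak was listed for DDX19A, DHX29 or DHX36.

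**Figure D4:**
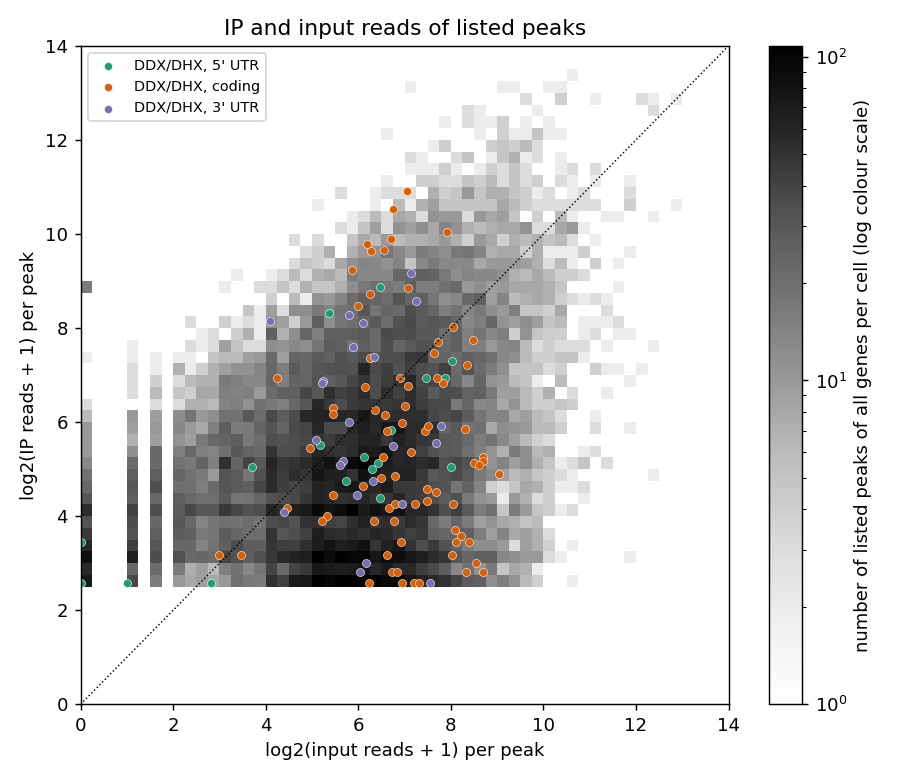
Each coloured point is 1 listed peak of a DDX or DHX gene, by log2(input reads + 1) and log2(IP reads + 1), over a grey map of the number of listed peaks of all genes, with the dotted line at equal reads. Every listed helicase peak had at least 5 IP reads, and the richest point is the DHX38 peak with 1917 IP reads.

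Helicases that sense foreign RNA were listed with few reads. DDX58 (RIG-I), the sensor of viral RNA ends, had 1 peak with 16 IP and 20 input reads (0.800, 0.388 to 1.62). DDX60 had 5 and 6, and DDX60L, its neighbour and relative, had 8 and 7, 8 and 10, and 26 and 52. The intervals of all but the last include 1, and in bulk RNA a transcript present in few cells and one present at a low level in every cell cannot be told apart. No peak was listed for DHX58.

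DDX11 carried the highest ratio of the 27 genes. Despite its name it is an iron-sulfur DNA helicase that acts in sister chromatid cohesion, not a DEAD box RNA helicase. Its highest peak, in exon 9 at chr12:31089993-31090092, plus strand, held 282 IP and 16 input reads, a ratio of 17.6 (10.7 to 31.3), and the stretch around its one GGAC is given below.
DDX11: ggcagaggtgaaGGACatggagcagctg
The overlapping peak in exons 9 and 10 held 310 IP and 55 input reads (5.64, 4.22 to 7.65), and the next 2 held 117 and 37 and 113 and 36. The next 3 peaks had ratios of 0.329 to 0.700. Nearer the 3′ end the ratio was high again, 274 IP and 68 input reads (4.03, 3.08 to 5.34) in the peak at chr12:31103359-31103959, which was placed only on another annotated transcript of the gene. In the last exon it was 33 and 48 and then 6 and 65 (0.0923, 0.0327 to 0.212). All 51 words of 50 nt in the highest peak, and all 91 in the one overlapping it, also occur in the pseudogene DDX12P, and 8 of its 10 peaks share words with DDX12P. Another locus, AC009533.1, shares words with 7 of them, 86.8% of the words of the peak with 117 IP and 37 input reads and 45.1% of those of the highest peak, so reads of these loci may be mixed in either direction.

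The other listed genes were DHX34, DHX30, DDX59, DHX32 and DHX40. In DHX34, which acts with UPF1 in nonsense-mediated decay, the printed peak held 121 IP and 18 input reads (6.72, 4.08 to 11.7), while the 2 peaks just before it held 15 and 39 and 14 and 36. In DHX30, a helicase of mitochondrial RNA granules, the peaks held 206 IP and 210 input reads (0.981, 0.805 to 1.19), 55 and 173, and 59 and 181. DDX59, known from an orofaciodigital syndrome, held 43 and 30 (1.43, 0.879 to 2.37) and 17 and 21. DHX40 held 45 and 35 (1.29, 0.808 to 2.06) at its start and 108 and 133 next to it, and DHX32 held 21 and 43 (0.488, 0.275 to 0.841). No peak was listed for DDX28 of mitochondria, DDX20 of small nuclear ribonucleoprotein assembly, the germline genes DDX4, DDX25, DDX43 and DDX53, or DDX3Y and DHX57.

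The 5′ UTR was the region richest in IP reads over all genes. The share of helicase peaks there with more IP than input reads was lower than over all genes under both ways of assigning the region. By midpoint there were fewer helicase peaks and the interval was wider. By the authors' region column 18 helicase peaks in 12 genes lay in 5′ UTRs, and 7 of them, 38.9% (17.3% to 64.3%), held more IP than input reads, against 70.1% of all 5′ UTR peaks, a background above that interval. By the midpoint of the peak it was 5 of 12, 41.7% (15.17% to 72.3%), against 69.0%, which that interval includes. By the authors' column their median log2 ratio was -0.62 (-0.97 to 1.58), against 1.26 over all 5′ UTR peaks. By midpoint it was -0.54 (-1.30 to 1.58), against 1.22. Both of these intervals include the background. By the authors' column the helicase 5′ UTR peaks also had more input reads, a median of 73.5 against 22. Their GC content was lower, a median of 57.3% against 64.4%. The part of either in the difference was not tested. Peaks of 1 gene are not independent, and DDX1 and DDX6 alone account for 5 of the 18.

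In coding regions 19 of 75 helicase peaks held more IP than input reads, 25.3% (15.99% to 36.7%), against 34.0%, with a median log2 ratio of -1.32 against -1. In 3′ UTRs the order was the other way, 11 of 23, 47.8% (26.8% to 69.4%), against 34.7%, and -0.30 against -1. Both intervals include the background. The 3′ UTR count rests on DDX11 and DDX56, since 6 of the 10 DDX11 peaks and 4 of the 6 DDX56 peaks that the authors placed there have their midpoint in coding sequence. By midpoint, 5 of 12 3′ UTR peaks held more IP than input reads, against 33.8%, with 3 of the 12 placed only on another annotated transcript, and the 3′ UTR minus coding difference of medians went from 1.02 to -0.04 on the log2 scale. The 5′ UTR minus coding difference was 0.70 by the authors' column and 0.46 by midpoint, against 2.26 and 2.08 over all peaks.

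**Figure D5:**
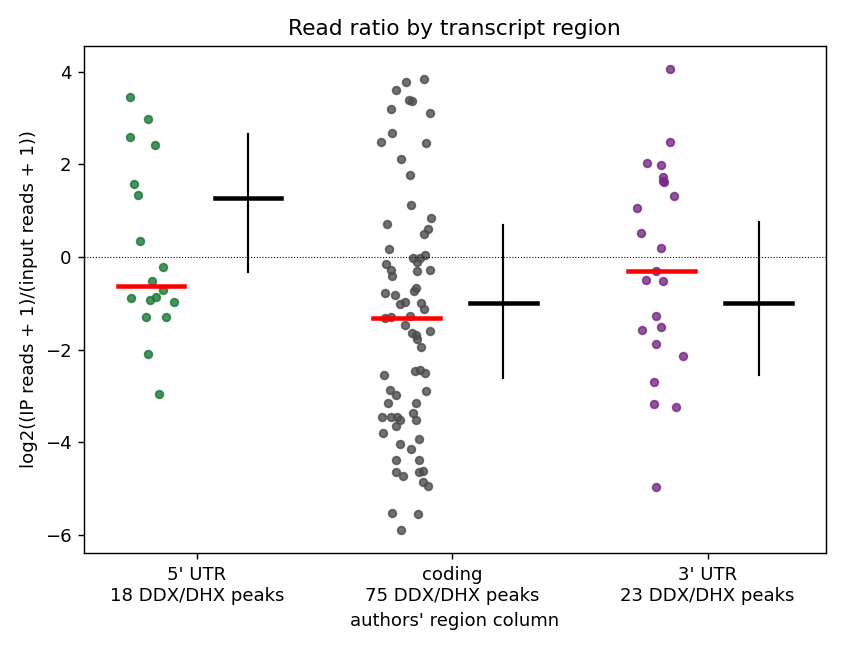
Points are the listed DDX and DHX peaks by the authors' region column, on the scale log2((IP reads + 1)/(input reads + 1)), with their median in red. Black bars give the median of all listed peaks with a line from the first to the third quartile, and only in the 5′ UTR does the red median, -0.62, fall below the quartile line, whose median is 1.26.

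Position along the mRNA gave no pattern beyond that of all genes. In 17 genes with at least 3 peaks, the highest log2 ratio was at the peak nearest the 5′ end in 8, 47.1% (23.0% to 72.2%), against 56.0% of all such genes, at that nearest the 3′ end in 2 and between them in 7. DDX1, DDX3X, DDX6, DDX19B, DDX42, DHX9, DHX30 and DDX11 made up the 8. The first listed peak of DDX11 is in exon 9 and that of DHX30 in exons 4 and 5. In DDX1, DDX3X and DDX19B the highest peak had 0 or 1 input read. Without it, the next peak from the 5′ end would be the highest in each of these genes. Peaks of both kinds, with more and with fewer IP than input reads, were held by 12 of the 27 genes, 44.4% (25.5% to 64.7%), against 45.9% of all genes with a peak.

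GGAC was counted in peaks rich and poor in IP reads. The 37 helicase peaks with more IP than input reads had 0.625 GGAC per 100 nt (0.462 to 0.826) and the other 79 had 0.430 (0.334 to 0.546), with overlapping intervals, against 0.640 and 0.470 over all listed peaks. They were also richer in GC, with medians of 58.6% and 50.3%. Over all 116 peaks the density was 0.495 (0.409 to 0.593), and 0.546 over all listed peaks. Exceptions were plain in both directions, with 3 rich DDX10 peaks and the 577-read DDX56 peak lacking GGAC, and the DDX21 peak in exons 7 and 8 holding 3 of them at 10 IP and 274 input reads.

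Related helicases outside the DDX and DHX names were read in the same way. Of 18 other RNA helicases 11 had a listed peak, 61.1%, against 36.4% of protein-coding genes. Of these 11 genes 5 held a peak with more IP than input reads, where 73.8% of all listed genes did. Such peaks were 11 of their 52, against 40.5% of all peaks. UPF1, the helicase of nonsense-mediated decay, had 17 peaks, 4 of them with more IP than input reads. The highest, at its start, held 58 IP reads and 1 input read (58.0, 10.0 to 2330), a ratio that rests on a single input read. SNRNP200, the helicase that unwinds U4 from U6, had 19 peaks, the highest with 1091 and 363 (3.01, 2.67 to 3.39). EIF4A1, the founding DEAD box protein of translation initiation, had 1 peak with 43 IP and 1006 input reads (0.0427, 0.0307 to 0.0580).

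Among 20 genes for proteins that work with helicases, 15 had a listed peak and 12 one with more IP than input reads, in 34 of 114 peaks, beside 36.4%, 73.8% and 40.5% over all features. GLE1, which activates DDX19B at the nuclear pore, held 825 IP and 118 input reads in its highest peak (6.99, 5.76 to 8.55). EIF4G1, the scaffold that stimulates EIF4A, held 5573 and 734 (7.59, 7.03 to 8.21), and CASC3, a partner of EIF4A3 in the exon junction complex, 254 and 21 (12.1, 7.74 to 19.9). Others had no peak with more IP than input reads. The highest peak held 115 IP and 118 input reads in CNOT1 (0.975, 0.747 to 1.27), a scaffold of mRNA deadenylation, and 19 and 34 in NKRF (0.559, 0.301 to 1.01). The genes named here were picked after their values were seen.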

How the data were processed

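The data were one deposited table of peaks. Per the file headers, a row gives the symbol, position and transcript region of a peak with its input and IP read counts, p-value, FDR and window score. The deposited counts carried no replicate number and were treated as pooled. The authors' p-value, FDR and score were used only to describe and filter peaks. The submitters' processing notes name HISAT2, HOMER and GRCh38/hg38, without versions or roles, and the peak calling method and library totals are not given in the sources used here.

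The 120 helicase entries, 4 of them repeats, gave 116 peaks. Peaks were placed on spliced GENCODE release 29 transcripts where both ends fell in exons and the length without introns divided by 10 nt, or by 5 nt for 8 helicase peaks (DDX54 and DDX24), and their sequences were read from those transcripts. The measures were the ratio of IP to input reads, with an exact Clopper-Pearson 95% interval from the share of IP reads, and log2((IP + 1)/(input + 1)). A ratio with 0 input reads was given as a bound against a floor of 3 counts per peak. These intervals and the floor describe counting error alone, since PCR reads are not independent molecules. Medians have order-statistic intervals. Sharing with other genes was checked as exon overlap and as identical 50-nt words. The computation was tested on simulated data and used Python 3.11.15, numpy 2.4.6, pandas 2.3.3 and scipy 1.17.1.

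Every listed helicase gene was described, and values in full were given for the genes with the highest ratio in each role, the genes with most peaks, and those with the lowest highest ratio. The members, the role groups and the lists of other genes were chosen with earlier results of these data known. Alternatives were filters on reads and on FDR, 1 peak per gene, thinned overlaps, repeats kept, other pseudocounts, the score in place of the ratio, midpoint regions and a stricter reading of the symbol rule.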

Additional observations from a re-analysis of the deposited data

How the results depend on the processing

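Leaving out a replicate was not possible, since the table holds 1 count of each kind. No paired analysis was possible because the columns carry no replicate number. Counting 1 peak per gene, the one with the highest ratio, gave 55.6% of peaks with more IP than input reads, 33.3% with a ratio of 4 or more and a median log2 ratio of 0.19, and turned the 5′ UTR minus coding difference to -0.29; by its construction it keeps only the richest peak of each gene. The log2 of the authors' score had a median of 1.82, on another scale than the read ratio. Requiring more IP than input reads left 15 genes and gave 0.625 GGAC per 100 nt. The shares, the medians and the number of listed genes kept their direction within the spread set for them under the other filters, pseudocounts and member rules, among them a minimum of 50 reads and, added after seeing the data, the 107 peaks that share no exon with another gene. Setting 0 input reads to the floor, also added after seeing the data, gave 15.5% of peaks at a ratio of 4 or more. Under the minimum of 50 reads the highest ratio of DDX1 moved to 0.400, that of DDX3X from 5.00 to 0.606 and that of DDX60L from 1.14 to 0.5, the last 2 within very wide intervals, and that of DDX19B from a bound of 3.33 to 8. DDX58 and DDX60 had no peak left, and the other genes kept their value. Depth limits the peaks of DDX58, DDX60 and DDX60L and the first peaks of DDX1, DDX3X and DDX19B.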

Other observations

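A feature was noticed in the sequences printed for their low ratios. DEAD box proteins share a stretch of the helicase core, called motif V, whose centre reads alanine, alanine, arginine, glycine and then leucine or isoleucine. Codons for these residues in frame were found in 4 peaks of 3 genes, DDX21, DDX24 (2 overlapping peaks) and DDX3X, with read ratios from 0.0145 to 0.0342. These peaks were looked at because they were low, so a contrast with other peaks would be set by that choice, and the neighbouring DDX21 peak without these codons was as low, 0.0188. Of all 20097 coding peaks listed, 0.0597% held these codons, 12 in number. The count is small, 2 of the 4 peaks overlap, and no reason for the low ratios was tested.

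Low values of the authors' FDR were found in helicase peaks of both kinds. In the authors' deposited table an FDR at or below 1e-10 was given to 23 of the 37 helicase peaks with more IP than input reads and to 36 of the other 79. The share of all listed peaks at this FDR was not computed, so these counts show nothing particular to helicases. The DDX1 peak with 5 IP and 0 input reads had an FDR of 5.01e-20 there, and the DDX3X peak with 5 IP reads and 1 input read 2.10e-98. Both lie below the p-value deposited for the same peak, which an adjustment of that p-value cannot give. How the FDR column was made is not given in the sources used here. Its values were therefore not read as strength of enrichment, and the filter on FDR carries the same doubt. The DDX24 peak with 5 IP and 146 input reads had an FDR of 3.31e-47.

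Across the 27 genes, Spearman's rho between the median input reads per 100 nt and the highest log2 ratio was -0.16, a description only, since both measures use the same input reads.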
